A study of Homo sapiens with 5 samples.

Results

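The genes described here are 56 writers and erasers of histone lysine methylation, together with subunits of the polycomb complexes. They were found by symbol, as the rows of the count files that carry exactly these names. All 56 names were found among 43714 gene rows, and 54 passed the filter on low counts that left 15859 genes for testing. Poly-A RNA was sequenced from Rh41, a human tumour cell line labelled ARMS and FP-RMS, the usual abbreviations for alveolar and for fusion-positive rhabdomyosarcoma. The cells given an siRNA against H3F3A for 48 hours make up 3 libraries (replicates 1, 2 and 3). The cells given a scrambled siRNA for the same 48 hours make up 2 libraries (replicates 1 and 3). Both groups were transfected with Lipofectamine RNAiMAX and share the line, the medium and the library kit. The labels give neither the siRNA sequences nor how many siRNAs were mixed, and no rescue or untransfected group was analysed here. Nothing in them states that the replicates were grown as separate cultures. The p-values below therefore describe variation among these libraries, part or all of which may be technical.

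Histone H3.3, made from H3F3A and H3F3B, is the H3 variant that cells deposit outside DNA replication, and its tail carries the same lysines as replication-coupled H3. Methyltransferases, most of them with a SET domain, add methyl groups to these lysines, and demethylases of the flavin-dependent LSD family or of the iron-dependent JmjC family take them off. H3K4 methylation is known from promoters and enhancers, H3K36 and H3K79 methylation from transcribed gene bodies, and H3K9 methylation and H4K20 trimethylation largely from heterochromatin. Polycomb repressive complex 2 (PRC2) methylates H3K27, and PRC1 reads that mark through its CBX subunits and ubiquitinates H2A. In the muscle lineage EZH2, the main catalytic subunit of PRC2, is known as a repressor of differentiation genes.

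Libraries held 28493573 to 30705963 counts assigned to genes, of which the 56 members took 0.537% to 0.589%. The H3F3A transcript (row H3-3A) was at 9.38, 10.5 and 8.54 CPM (counts scaled by library size) in the H3F3A siRNA libraries, against 294 and 269 CPM in the scrambled ones. H3F3B (row H3-3B) averaged 819 ± 28 CPM in H3F3A siRNA cells and 821 ± 25.6 CPM in scrambled siRNA cells (SD, n = 3 and 2). All 8 markers of the skeletal muscle lineage were detected, with sums of 4139 to 4207 CPM in H3F3A siRNA libraries and 4786 to 5934 CPM in scrambled ones. They did not move together. The log2 fold change was -0.50 for FGFR4 and -0.33 to -0.29 for MYOD1, DES, CDH15 and TNNT2. It was -0.03 for MYOG, -0.07 for MYMK and 0.10 for CHRNG. The 5 fibroblast markers summed to 71.2 to 78.2 CPM in H3F3A siRNA libraries and 89.8 to 98.8 CPM in scrambled ones, with LUM and DCN near 0. What part these shifts have in the results below was not tested. The 4 epithelial markers summed to 5.2 to 5.93 CPM in H3F3A siRNA libraries and 5.76 to 6.65 CPM in scrambled ones, mostly KRT18, with EPCAM and CDH1 at or near 0. The 4 endothelial markers summed to 2.1 to 2.52 CPM in H3F3A siRNA libraries and 2.43 to 2.93 CPM in scrambled ones, with KDR at or near 0. The 4 immune markers summed to 4.17 to 4.76 CPM in H3F3A siRNA libraries and 4.04 to 4.59 CPM in scrambled ones, mostly CD68, with PTPRC at or near 0. In base composition, 1 control library (scrambled siRNA replicate 1) differed from the rest. The slope of a gene's log2 deviation from its mean over the libraries, per 10 percentage points of transcript GC content, was -0.06 to -0.04 in the 3 H3F3A siRNA libraries, 0.15 in scrambled replicate 1 and -0.01 in scrambled replicate 3. The calls below are also given without it.

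Most members were close to their control level after H3F3A knockdown, and 5 of the 54 tested were called. CBX6, PHF19, KMT5C and DOT1L fell, and KDM7A rose. A gene is called, here and below, at a Benjamini-Hochberg adjusted p under 0.05 over all 15859 genes in edgeR's quasi-likelihood test. The 4 lower calls are 7.41% of the members tested, against a background of 2.69% of all genes tested. The 1 higher call is 1.85%, against a background of 0.504%. Calls depend on expression and on GC content. Among genes averaging at least 8 CPM, 4 of 50 members were called lower, 8% against 4% of 9717 genes. Among genes of at least 55% GC the share was 4 of 19 members, 21.1% against 7.68% of 4482 genes. Neither background is matched in both expression and GC content, and the median level was 88.9 CPM for members and 18.3 CPM for all genes tested. The 4 lower members all belong to that GC-rich class.

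The median log2 fold change was 0.01 over the members and 0.01 over all genes tested, with 29 members above 0 and 25 below. The median size of the change, whatever its sign, was 0.0894 log2 for members and 0.125 log2 for all genes. For 37 members, 68.5%, the 95% interval of the fold change lay within 1.25-fold either way, against 41% of all genes. For 52 members it lay within 1.5-fold either way, against 70.7% of all genes. KDM7A and PHF1, which have the lowest levels per length when only the row of exactly that name is counted, are the 2 outside that range. These comparisons with all genes are not matched in expression, and the median level was 88.9 CPM for members and 18.3 CPM for all genes. Whether members changed less than genes of the same level was not tested. The 49 members not called had log2 fold changes from -0.21 to 0.18. The CPM ranges of the groups did not overlap for 12 members lower in H3F3A siRNA cells (22.2%, background 17.1%) and for 8 members higher (14.8%, background 16%). At an unadjusted p under 0.05 there were 9 lower and 3 higher members, where 10.9% and 5.91% of all genes passed.

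**Figure D1:**
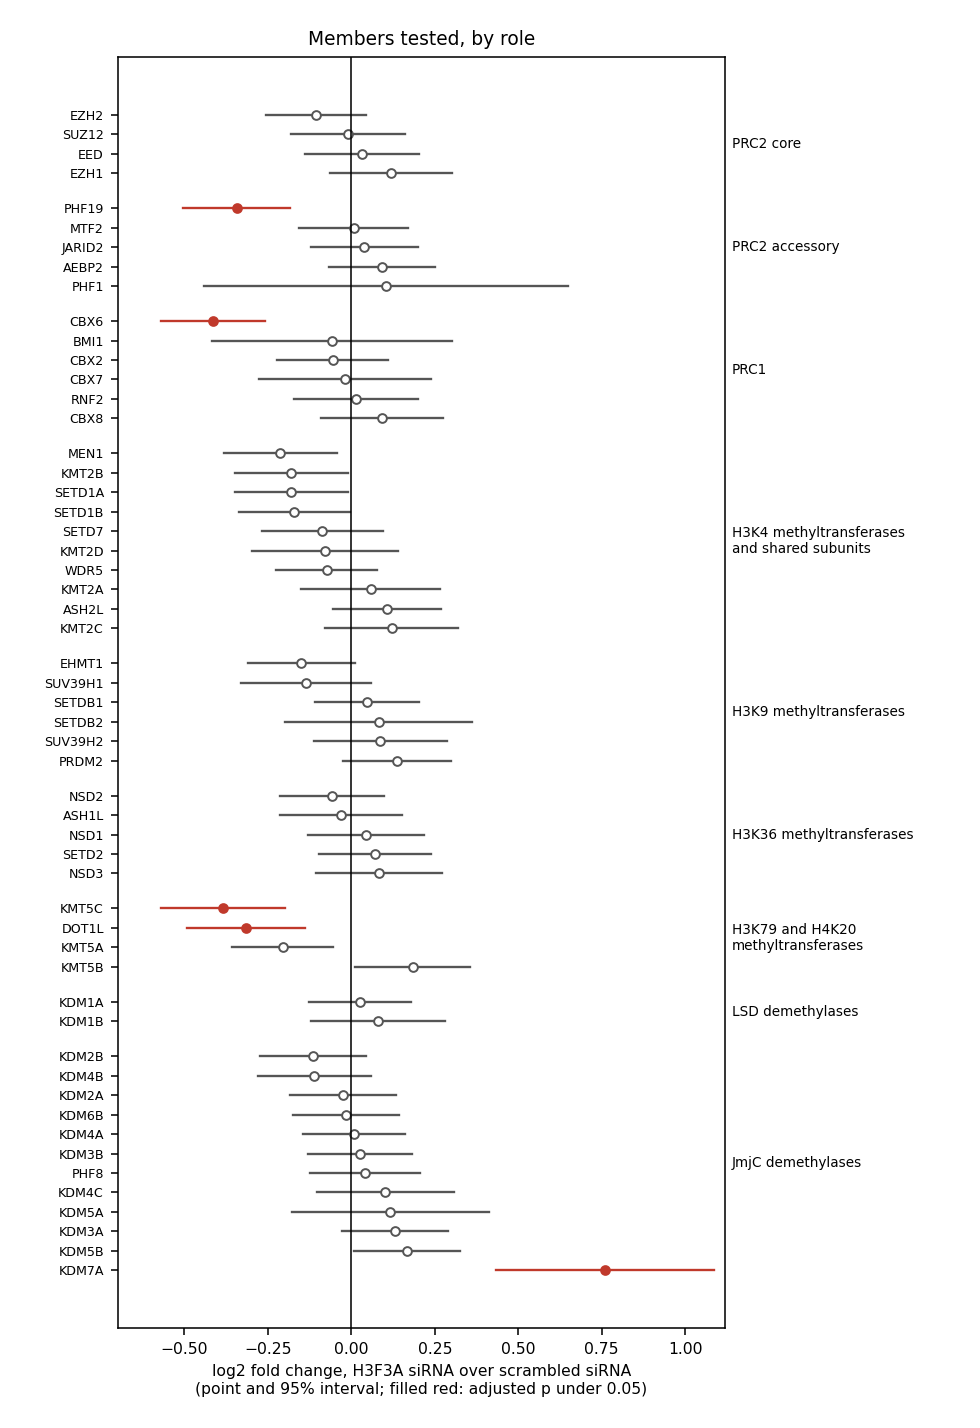
Log2 fold change of H3F3A siRNA over scrambled siRNA for each of the 54 members tested, grouped by role, with bars for the 95% interval of edgeR's quasi-likelihood fit. CBX6, KMT5C, PHF19 and DOT1L lie below 0 and KDM7A lies above 0 as called genes, and the other 49 members lie between -0.21 and 0.18.

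Levels can be compared between genes only per length, taken here as CPM per kilobase of the longest annotated transcript (RPKM). The members' median level was 13.4 RPKM, against 6.43 RPKM over all genes tested with a known length. KDM1A, the LSD demethylase of H3K4, was the most abundant, with mean levels of 99.4 RPKM in H3F3A siRNA cells and 97.7 RPKM in scrambled siRNA cells. It was followed by WDR5, a scaffold of H3K4 methyltransferase complexes, with mean levels of 74.0 RPKM in H3F3A siRNA cells and 77.9 RPKM in scrambled siRNA cells. CBX2, a chromodomain subunit of PRC1, came next, with mean levels of 65.8 RPKM in H3F3A siRNA cells and 68.4 RPKM in scrambled siRNA cells. KMT5C and EZH2 were the other members above 50 RPKM, while 27 members lay at 10 to 50, 20 at 1 to 10, and 2 under 1 RPKM. Those 2 are KDM7A and PHF1, and the level of PHF1 leaves out a numbered copy row that held more counts than its own. Of the 5 called members, KMT5C ranked 4 by this level, CBX6 8, PHF19 12, DOT1L 23 and KDM7A 54, the lowest.

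**Figure D2:**
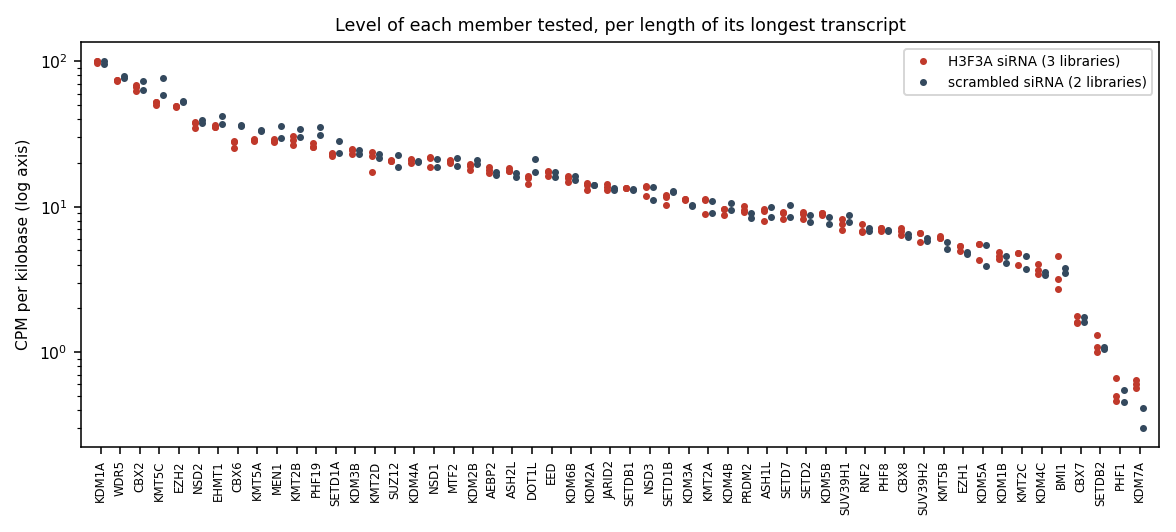
Level of each of the 54 members tested in CPM per kilobase of the longest transcript (log axis), 1 point per library, ordered by the mean over libraries. KDM1A is highest and KDM7A lowest, and the H3F3A siRNA points lie clear below the scrambled points for CBX6, PHF19 and KMT5C and above them for KDM7A.

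CBX6, a chromodomain subunit of PRC1, had the lowest fold change. It was at 155, 172 and 170 CPM in H3F3A siRNA libraries, against 223 and 218 CPM in scrambled libraries. Both control libraries gave nearly the same level, and every knockdown library was below both. The log2 fold change was -0.41 ± 0.0753 (SE), a 1.33-fold lower level (adjusted p = 0.0038, edgeR). PHF19, a Polycomb-like subunit that guides PRC2 to chromatin, was at 109, 109 and 117 CPM in H3F3A siRNA libraries, against 151 and 133 CPM in scrambled libraries. The groups did not overlap, and the 2 scrambled libraries lay further apart than the 3 knockdown libraries. Its log2 fold change was -0.34 ± 0.0778 (SE), 1.27-fold lower (adjusted p = 0.0167, edgeR).

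KMT5C, the SUV4-20 enzyme that trimethylates H4K20, was at 116, 121 and 120 CPM in H3F3A siRNA libraries, against 176 and 135 CPM in scrambled libraries. The knockdown libraries were tightly grouped below both controls, of which replicate 1 was much the higher. Its log2 fold change was -0.38 ± 0.0897 (SE), 1.31-fold lower (adjusted p = 0.0209, edgeR). DOT1L, the H3K79 methyltransferase, which has no SET domain, was at 107, 121 and 117 CPM in H3F3A siRNA libraries, against 158 and 129 CPM in scrambled libraries. Again replicate 1 was the higher control, and the groups did not overlap. Its log2 fold change was -0.32 ± 0.0858 (SE), 1.24-fold lower (adjusted p = 0.0448, edgeR). The annotated span of DOT1L overlaps AP3D1 (log2 fold change -0.19, adjusted p = 0.202, edgeR) and PLEKHJ1 (-0.30, adjusted p = 0.0725), and that of PHF19 overlaps TRAF1 (-0.40, adjusted p = 0.382). The counts carry no strand, so reads from shared stretches cannot be assigned to one gene.

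KDM7A, a JmjC demethylase of H3K9 and H3K27, was the 1 member called higher and the least abundant per length. It was at 5.29, 5.62 and 5.92 CPM in H3F3A siRNA libraries, against 2.78 and 3.84 CPM in scrambled libraries. These levels rest on 158, 163 and 183 counts in H3F3A siRNA libraries, against 81 and 114 counts in scrambled libraries. Every knockdown library was above both controls, and the controls differed from each other more than the knockdown libraries did. The log2 fold change was 0.76 ± 0.158 (SE), 1.69-fold higher, with a 95% interval of 0.43 to 1.09 (adjusted p = 0.00969, edgeR). KDM7A-DT, the divergent transcript beside it, was at 1.98, 2.07 and 2.36 CPM in H3F3A siRNA libraries, against 1.85 and 0.909 CPM in scrambled libraries. It was not called (log2 fold change 0.63, adjusted p = 0.191, edgeR). In bulk RNA a lower level in every cell and a smaller share of cells that express the gene cannot be told apart, for these 5 genes or any other.

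**Figure D3:**
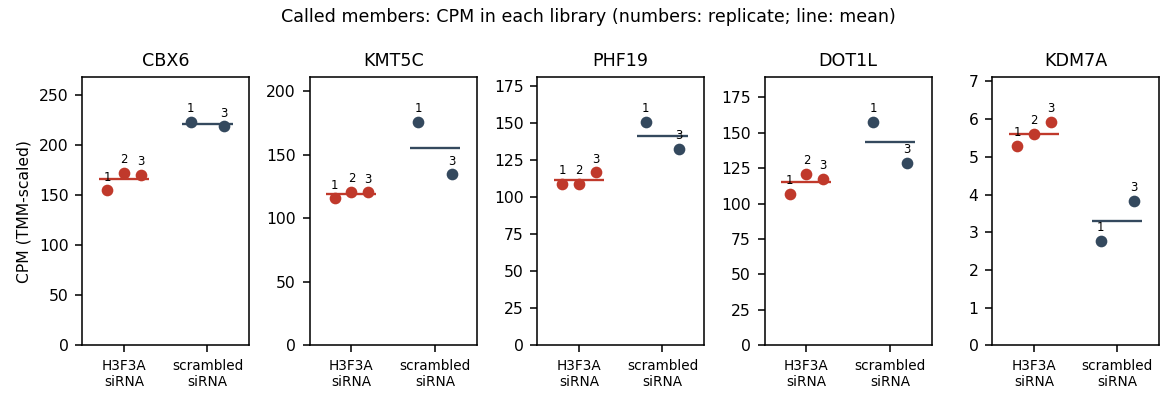
CPM of the 5 called members in each library, H3F3A siRNA left of scrambled siRNA, with points numbered by replicate and lines at the group means. The groups do not overlap in any panel, and scrambled replicate 1 is the control farther from the knockdown libraries in all 5, by least for CBX6.

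Promoter sequence is shown for CBX6, KMT5C and KDM7A, the called members with a single start in the RefSeq promoter table (GRCh38.p14), so that the genes that fell and the one that rose can be set side by side. By symbol, 50 of the 56 members matched this table, and CBX2, CBX8, SETD1B, ASH2L, NSD3 and DOT1L did not. PHF19 has 2 listed starts. For each gene with several starts the first in the table was used in the counts below. Each line gives the 250 bases before the start, 5′ to 3′ on the strand of the gene. The CBX6 window is chr22:38872217-38872466 (minus strand), that of KMT5C is chr19:55339626-55339875 (plus strand) and that of KDM7A is chr7:140176984-140177233 (minus strand). Capitals mark the GC box, GGGCGG or its reverse complement CCGCCC.
CBX6: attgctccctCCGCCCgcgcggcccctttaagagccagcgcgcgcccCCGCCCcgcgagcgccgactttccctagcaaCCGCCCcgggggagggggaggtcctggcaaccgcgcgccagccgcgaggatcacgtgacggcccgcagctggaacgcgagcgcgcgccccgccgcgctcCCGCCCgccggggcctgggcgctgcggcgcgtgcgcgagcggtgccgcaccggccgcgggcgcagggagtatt
KMT5C: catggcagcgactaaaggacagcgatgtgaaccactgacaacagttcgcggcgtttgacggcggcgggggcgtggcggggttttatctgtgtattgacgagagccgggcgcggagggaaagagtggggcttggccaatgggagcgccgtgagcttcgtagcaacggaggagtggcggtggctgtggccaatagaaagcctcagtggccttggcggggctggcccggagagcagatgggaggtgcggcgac
KDM7A: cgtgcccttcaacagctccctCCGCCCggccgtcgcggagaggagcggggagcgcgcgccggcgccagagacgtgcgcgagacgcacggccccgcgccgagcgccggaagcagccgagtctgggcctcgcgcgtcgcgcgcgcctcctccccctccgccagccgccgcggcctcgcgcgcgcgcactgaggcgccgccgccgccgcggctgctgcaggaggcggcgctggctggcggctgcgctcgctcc
CBX6 held 4 GC boxes, KDM7A 1 and KMT5C none, while KMT5C held 2 CCAAT boxes and the other 2 windows none. No printed window therefore holds both motifs. A GC box was present in 72% of the 50 member windows, in 64.7% of 11676 windows of tested genes and in 42.3% of all 27303 windows. A CCAAT box, on either strand, was present in 36% of member windows, 34.7% of windows of tested genes and 33% of all windows. CpG dinucleotides numbered 45 in CBX6, 23 in KMT5C and 50 in KDM7A, against medians of 23 over members and 20 over tested genes. KDM7A thus pairs a CpG-dense start with a transcript of 38.5% GC, while the transcripts of CBX6 (59.8% GC) and KMT5C (66.1% GC) are GC-rich.

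Fold change was lower in members with GC-rich transcripts, and likewise among all genes. Of 19 members of at least 55% GC, 17 lay below 0, with a median log2 fold change of -0.13, and 3614 of 4482 genes in that class lay below 0, with a median of -0.14. At 45% to 55% GC, 14 of 17 members lay above 0 (median 0.04), where all genes split nearly evenly, with 2404 of 4671 above 0 (median 0.01). Under 45% GC, 13 of 18 members lay above 0 (median 0.08), and 3998 of 5087 genes did (median 0.09). The Spearman correlation between log2 fold change and GC content was -0.58 over 54 members and -0.53 over 14240 genes with a GC value. These are descriptions across genes that share the same 5 libraries. Without scrambled replicate 1, that correlation over the members was -0.25.

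**Figure D4:**
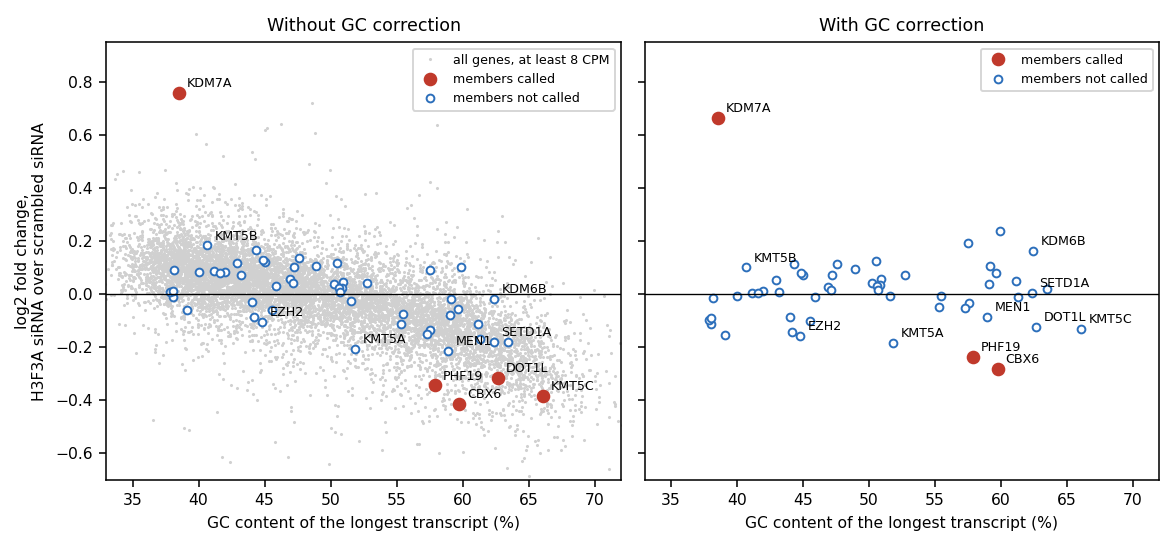
Log2 fold change of H3F3A siRNA over scrambled siRNA against transcript GC content for the 54 members tested, without and with a correction for the GC trend of each library (grey points, uncorrected panel: all genes of at least 8 CPM). The Spearman correlation is -0.58 in the uncorrected panel and 0.08 in the corrected panel, in which CBX6 and PHF19 stay below 0 and KDM7A above 0 as called genes.

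A correction for the smooth GC trend of each library also removes any difference between the groups that follows GC content. After it, CBX6 (log2 fold change -0.28, adjusted p = 0.023), PHF19 (-0.24, adjusted p = 0.0264) and KDM7A (0.66, adjusted p = 0.0254, edgeR) were still called, where 1.27% of all genes were called lower and 0.53% higher. KMT5C (-0.13, adjusted p = 0.26) and DOT1L (-0.12, adjusted p = 0.348, edgeR) were not. Without scrambled replicate 1, CBX6 was the 1 member called, at a log2 fold change of -0.40 (adjusted p = 0.00878, edgeR), where 0.501% of genes were called lower and 0.122% higher. In that fit PHF19 was at -0.25, KMT5C at -0.18, DOT1L at -0.17 and KDM7A at 0.54. Without scrambled replicate 3, 8 members were called lower and 3 higher, with EHMT1, KMT2B, MEN1 and SETD1A added to the lower ones and KDM5B and KMT5B to the higher. In that fit 10.6% of all genes were called lower and 4.54% higher.

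The knockdown libraries mattered as well. Without H3F3A siRNA replicate 1 no member was called by edgeR (6 lower and 1 higher at an unadjusted p under 0.05), and 9 genes were called lower (0.0575%) and 6 higher (0.0383%) in all. The log2 fold changes in that fit were -0.36 for CBX6, -0.36 for KMT5C, -0.33 for PHF19, -0.26 for DOT1L and 0.80 for KDM7A, close to those from all libraries. Without replicate 2 CBX6 and KDM7A were called, with 0.977% of genes lower and 0.153% higher. Without replicate 3 DOT1L was the 1 member lost, with 1.62% of genes lower and 0.351% higher. Over 17 alternative fits, CBX6 was called in 13 (adjusted p 2.8e-08 to 0.235), KDM7A in 12 (0.000268 to 0.306), PHF19 in 10 (0.000166 to 0.242), KMT5C in 8 (9.19e-06 to 0.81) and DOT1L in 6 (0.000187 to 0.784, edgeR or DESeq2). All 17 kept the sign of each of the 5.

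**Figure D5:**
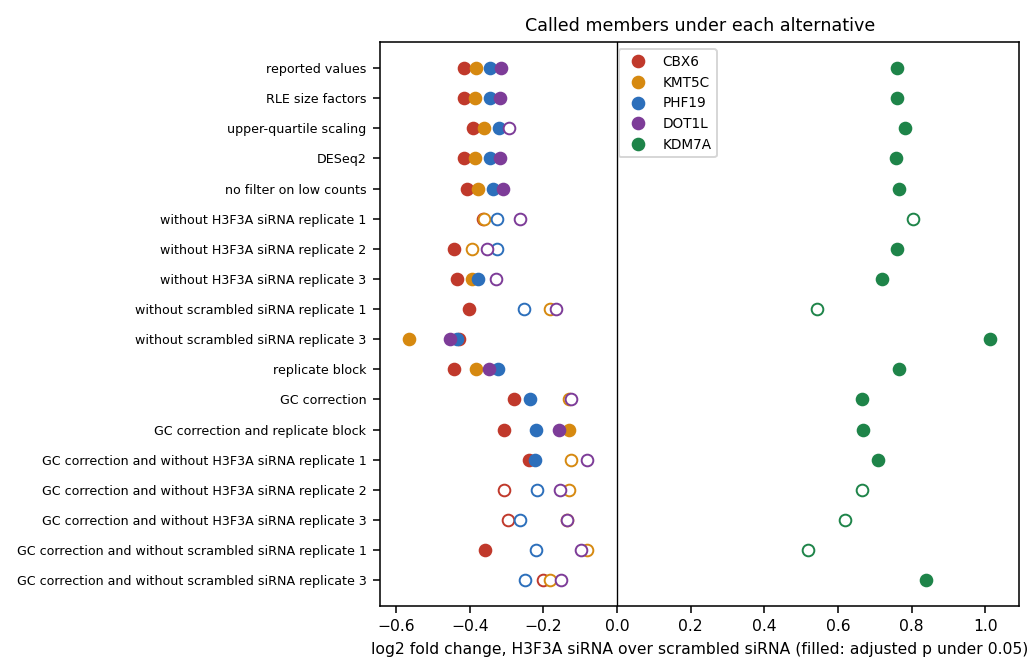
Log2 fold change of the 5 called members under the fit reported and the 17 alternatives, with filled points where the adjusted p is under 0.05. CBX6 stays between -0.44 and -0.20 and KDM7A between 0.52 and 1.01, while KMT5C ranges from -0.56 to -0.08 and DOT1L from -0.45 to -0.08.

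None of the 4 core genes of PRC2 was called in the edgeR fit reported or by DESeq2, and none had an unadjusted p under 0.05 in that edgeR fit. EZH2 was at 130, 129 and 128 CPM in H3F3A siRNA libraries, against 138 and 140 CPM in scrambled libraries. Its groups did not overlap, but the difference was small, at a log2 fold change of -0.11 with a 95% interval of -0.26 to 0.04 (adjusted p = 0.493, edgeR). EZH1, the other catalytic subunit, was at 22.8, 24.8 and 24.9 CPM in H3F3A siRNA libraries, against 22.7 and 21.9 CPM in scrambled libraries (log2 fold change 0.12, adjusted p = 0.533, edgeR). SUZ12, the subunit that holds the complex together, had a log2 fold change of -0.01 (95% interval -0.18 to 0.16). EED, which binds methylated H3K27, had one of 0.03 (-0.14 to 0.20). Per length, EZH2 made up 90.3% of the summed EZH1 and EZH2 level in H3F3A siRNA cells and 91.6% in scrambled siRNA cells.

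Of the 5 accessory subunits of PRC2, PHF19 fell and JARID2, MTF2, AEBP2 and PHF1 were not called, with log2 fold changes of 0.01 to 0.10. Within the Polycomb-like family of PHF19, MTF2 and PHF1, PHF19 supplied 55.8%, 54.8% and 56.1% of the summed level per length in H3F3A siRNA libraries, against 64.5% and 58.4% in scrambled libraries. These shares were lower in each knockdown library than in either control. PHF1 is uncertain, because its own row held 31 to 45 counts and a numbered copy row, left out of these shares, held 129 to 174. Summed over both rows it averaged 6.12 ± 0.625 CPM in H3F3A siRNA cells and 6.15 ± 0.21 CPM in scrambled siRNA cells (SD, n = 3 and 2).

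Of the 7 members of PRC1, CBX6 fell, 5 were not called, and RING1 could not be measured. CBX2 was at 288, 309 and 319 CPM in H3F3A siRNA libraries, against 338 and 297 CPM in scrambled libraries, with overlapping groups (log2 fold change -0.06, adjusted p = 0.778, edgeR). CBX7, CBX8, BMI1, the PCGF subunit, and RNF2, the ubiquitin ligase, had log2 fold changes of -0.06 to 0.09. Among CBX2, CBX6, CBX7 and CBX8, the CBX6 share of the summed level per length was 26.4%, 27.3% and 26.4% in H3F3A siRNA libraries, against 31% and 33.2% in scrambled libraries. CBX2 took 65% on average in H3F3A siRNA cells and 60.8% in scrambled siRNA cells. RING1, the paralogue of RNF2, and EHMT2, an H3K9 methyltransferase, are listed at 0 in all 5 libraries. The files hold 5 further numbered rows of RING1 with 2 to 7 counts in sum and 6 of EHMT2 with 0 to 1, so their level is not given by these counts.

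None of the 10 H3K4 methyltransferases and shared subunits was called in the edgeR fit reported or by DESeq2, and 7 lay below 0. At an unadjusted p under 0.05, 4 of them were lower, where 10.9% of all genes were. The median GC content of their transcripts is 57.2%, in the class where 3614 of 4482 genes lay below 0. MEN1, which encodes menin, a partner of KMT2A and KMT2B, was at 91.6, 88.8 and 88.4 CPM in H3F3A siRNA libraries, against 114 and 94.0 CPM in scrambled libraries. The groups were apart by a narrow margin to replicate 3 (log2 fold change -0.21, adjusted p = 0.172, edgeR). SETD1A, catalytic subunit of a COMPASS complex, was at 143, 150 and 150 CPM in H3F3A siRNA libraries, against 183 and 151 CPM in scrambled libraries (-0.18, adjusted p = 0.264, edgeR). KMT2B was at 223, 259 and 243 CPM in H3F3A siRNA libraries, against 291 and 257 CPM in scrambled libraries, with overlap (-0.18, adjusted p = 0.26, edgeR). These 3 and SETD1B (-0.17) have transcripts of 58.9% to 63.5% GC, and their controls were highest in scrambled replicate 1.

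KMT2A, KMT2C and KMT2D, which have the longest transcripts of all members, varied between libraries of a group more than the group means differed. KMT2D, an enhancer methyltransferase and the member with the highest CPM, was at 336, 464 and 434 CPM in H3F3A siRNA libraries, against 419 and 450 CPM in scrambled libraries (log2 fold change -0.08, 95% interval -0.30 to 0.14). KMT2A, which methylates H3K4 at promoters, was at 148, 187 and 185 CPM in H3F3A siRNA libraries, against 150 and 183 CPM in scrambled libraries (0.06, -0.15 to 0.27). KMT2C, the paralogue of KMT2D, was at 67.2, 80.8 and 81.0 CPM in H3F3A siRNA libraries, against 62.9 and 77.5 CPM in scrambled libraries (0.12, -0.08 to 0.32). In all 3, replicate 1 was the lowest library of its group. WDR5, SETD7 and ASH2L had log2 fold changes of -0.07, -0.09 and 0.11.

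None of the 6 measured H3K9 methyltransferases was called in the edgeR fit reported or by DESeq2, and none had an unadjusted p under 0.05 in that edgeR fit. SETDB1, which silences repeats with the TRIM28 corepressor, was at 59.5, 60.0 and 60.0 CPM in H3F3A siRNA libraries, against 57.5 and 58.3 CPM in scrambled libraries (log2 fold change 0.05, 95% interval -0.11 to 0.20). SUV39H1, the enzyme of pericentric heterochromatin, was at 22.5, 20.6 and 24.4 CPM in H3F3A siRNA libraries, against 25.9 and 23.5 CPM in scrambled libraries, with overlap (-0.13, adjusted p = 0.498, edgeR). PRDM2 had the highest log2 fold change of the group, 0.14, and EHMT1, the partner of EHMT2, the lowest, -0.15. Both had groups that did not overlap and neither was called (adjusted p = 0.393 for PRDM2 and 0.337 for EHMT1, edgeR).

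The 5 H3K36 methyltransferases showed the narrowest range of any enzyme group with more than 2 members, from -0.06 to 0.08 log2. The CPM ranges of the groups overlapped for all 5, where 17.1% of all genes lay apart as lower and 16% as higher. None of the 5 was called in the edgeR fit reported or by DESeq2, or had an unadjusted p under 0.05 in that edgeR fit. SETD2, the trimethylase that travels with RNA polymerase II, was at 66.5, 73.0 and 74.4 CPM in H3F3A siRNA libraries, against 64.0 and 71.8 CPM in scrambled libraries (0.07, 95% interval -0.10 to 0.24). NSD2, a dimethylase and the most abundant of the group, was at 300, 326 and 324 CPM in H3F3A siRNA libraries, against 322 and 337 CPM in scrambled libraries (-0.06, -0.21 to 0.10). Its paralogues NSD1 and NSD3 had log2 fold changes of 0.04 and 0.08, and ASH1L one of -0.03.

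The enzymes of H3K79 and H4K20 held 2 of the 4 lower calls, DOT1L and KMT5C, where 2.69% of all genes and 7.68% of those of at least 55% GC were called lower. Both calls were lost under the GC correction and without scrambled replicate 1. KMT5A, the H4K20 monomethylase on whose product the other KMT5 enzymes act, was at 91.8, 89.2 and 90.2 CPM in H3F3A siRNA libraries, against 103 and 105 CPM in scrambled libraries. Its groups did not overlap and both were tight, but it was not called in the fit reported (log2 fold change -0.21, 95% interval -0.36 to -0.05, adjusted p = 0.134, edgeR). KMT5B, the paralogue of KMT5C, was at 35.4, 35.6 and 36.8 CPM in H3F3A siRNA libraries, against 30.1 and 33.1 CPM in scrambled libraries. Its groups did not overlap either, in the opposite direction to KMT5C, and it was not called (0.18, adjusted p = 0.256, edgeR). Its transcript has 40.7% GC, against 66.1% in KMT5C, and the difference between the paralogues was not tested.

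Of the 14 demethylases, KDM7A rose, where 0.504% of all genes were called higher, and 13 were not called. Of the 14, 10 lay above 0, where 8146 of all 15859 genes did. KDM1A was at 296, 308 and 308 CPM in H3F3A siRNA libraries, against 292 and 306 CPM in scrambled libraries (log2 fold change 0.02, 95% interval -0.13 to 0.18). KDM5B, an H3K4 demethylase, was at 91.0, 94.1 and 93.3 CPM in H3F3A siRNA libraries, against 78.1 and 87.2 CPM in scrambled libraries. Its groups did not overlap, and it was not called (0.17, adjusted p = 0.271, edgeR). KDM3A, an H3K9 demethylase, was at 56.1, 55.4 and 54.5 CPM in H3F3A siRNA libraries, against 50.1 and 51.0 CPM in scrambled libraries, also without overlap (0.13, adjusted p = 0.415, edgeR). KDM6B, an H3K27 demethylase, had overlapping groups and a log2 fold change of -0.02 (95% interval -0.18 to 0.14), and KDM4A, a demethylase of H3K9 and H3K36, one of 0.01 (-0.15 to 0.16). PHF8, the closest relative of KDM7A in the list, was at 41.1, 43.6 and 43.6 CPM in H3F3A siRNA libraries, against 41.0 and 42.1 CPM in scrambled libraries (0.04, adjusted p = 0.845, edgeR). Of the summed level of these 2 genes per length, KDM7A supplied 7.77%, 7.78% and 8.16% in H3F3A siRNA libraries, against 4.24% and 5.63% in scrambled libraries.

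A wider list of 61 partners, readers and less studied enzymes of histone lysine methylation was read in the same fit, and 57 of them were tested. None was called (edgeR, smallest adjusted p = 0.0941), against 2.69% of all genes lower and 0.504% higher. At an unadjusted p under 0.05, 2 lay lower and 5 higher, 3.51% and 8.77%, against 10.9% and 5.91% of all genes, and DESeq2 called 1 lower and 0 higher. Their median log2 fold change was 0.01, with 29 above 0 and 28 below.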

How the data were processed

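Poly-A RNA of Rh41 cells was measured in 5 libraries, grouped by their titles. The authors deposited raw gene counts in 1 unstranded and 2 stranded columns, laid out as STAR writes them, and the unstranded counts were used here. Per the submitters' processing notes the tools were CASAVA, bcl2fastq, STAR 2.5, HTSeq 0.6.1 and DESeq2, with hg19. Which tool made the files and which annotation was used is not given in the sources used here. The summary lines for unmapped (4.84% to 5.48% of reads), multimapping (6.28% to 6.42%), featureless (9.17% to 10.2%) and ambiguous reads (4.45% to 4.56%) name no gene and were left out.

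The test was that of edgeR 4.0.16 under R 4.3.3 (filterByExpr with a minimum count of 10 and total of 15, TMM, robust quasi-likelihood fit, no covariate). The biological coefficient of variation was 6.53%, at 28493573 to 30705963 counts per library. CPM values use the TMM library sizes. Transcript length and GC content came from the longest GENCODE transcript of each gene, for 14240 of the genes tested. The GC correction subtracted a lowess trend (span 0.4) per library. On simulated data the test called 100 of 100 genes changed by 1 log2, 65 of 100 changed by 0.4 log2 and 7 of 15403 unchanged ones. The simulation drew each gene independently, with no GC trend in any library, and changed no gene of very low CPM. These rates therefore check the code and need not hold for the real libraries. Each library was counted separately. Replicates differed by 3.54 to 13.3 chi-square units per gene, above the noise of read sampling. Separate library preparations of the same culture can exceed that noise too, so this does not tell whether the cultures were separate.

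The members, the wider list and the tests were chosen with earlier results of these data known. Named are H3F3A, H3F3B, every called member, the 6 highest and 6 lowest fold changes, the PRC2 core and a set of catalytic genes and WDR5. Members named beyond these were added after their values were seen. Alternatives were RLE and upper-quartile scaling, DESeq2 1.42.0, no filter, each library left out, a replicate block and the GC correction, alone and combined.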

Additional observations from a re-analysis of the deposited data

How the results depend on the processing

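All 17 alternatives kept the direction of every called member. The calls were the same 5 under RLE scaling, DESeq2 and no filter on low counts, and upper-quartile scaling lost DOT1L. Without the filter 153 genes were called higher, against 80 with it. Leaving out 1 library at a time gave 0 to 8 members called lower and 0 to 3 higher, 9 to 1737 genes lower and 6 to 744 higher, and 0 to 5 further genes lower and 0 to 6 higher. DESeq2 called 1 further gene lower. The GC correction left 2 members lower and 201 genes lower, and called 1 further gene higher. Together with leaving out scrambled replicate 1 it left 1 member lower and 0 higher, with 63 genes lower and 18 higher. Leaving out each other library under the GC correction was added after seeing the data. It gave 0 to 2 members lower and 0 to 1 higher, 38, 90, 118 and 259 genes lower and 21, 41, 50 and 142 higher, and 1 further gene higher in each fit. The causes of these shifts were not tested.

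Replicate numbers 1 and 3 occur in both groups, but no label ties same-numbered libraries together. The deviations of same-numbered libraries from their group means correlated at 0.112 (number 1) and 0.0487 (number 3). Unlike-numbered pairs across the groups gave -0.112 to 0.068. The deviations of the 2 scrambled libraries mirror each other, so these values cannot tell whether equal numbers mark a pair. The fit with the replicate block called the same 4 members lower and 1 higher, with 476 genes lower and 98 higher. It leaves 1 residual degree of freedom. Number 2 has no control, so H3F3A siRNA replicate 2 does not inform the fold changes of that fit. They were close to those of the fit without that library, as for CBX6 (-0.44 in each) and PHF19 (-0.32 and -0.33). The GC correction and replicate block together also leave 1 residual degree of freedom. That combined fit called 9 members lower and 2 higher, 738 genes lower and 449 higher, and 1 further gene lower and 2 higher. The members it added were EZH2 (log2 fold change -0.16, adjusted p = 0.00763), KMT5A (-0.17, 0.00654), NSD2 (-0.13, 0.0398), ASH1L (-0.14, 0.0409) and SETD7 as lower and CBX8 as higher (edgeR).

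Each of the 5 calls was lost without H3F3A siRNA replicate 1, with log2 fold changes of -0.36 for CBX6, -0.33 for PHF19 and 0.80 for KDM7A. These 3 were called without that library under the GC correction (adjusted p = 0.0221, 0.0263 and 0.0132, edgeR). Under the same correction none of the 3 was called without H3F3A siRNA replicate 2 (adjusted p = 0.0605, 0.121 and 0.098, edgeR). None was called without H3F3A siRNA replicate 3 either (0.134, 0.0977 and 0.156, edgeR). Their corrected log2 fold changes were -0.36, -0.22 and 0.52 without scrambled replicate 1, and -0.20, -0.25 and 0.84 without scrambled replicate 3. On simulated data, drawn without a GC trend, 65 of 100 genes changed by 0.4 log2 were called. Some changed genes were missed even there, and that rate need not hold for the real libraries. A missing call is therefore not read as an unaltered level. Tested members that were named but not called are described by log2 fold change, some with an interval and others without.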
